A study of Mus musculus with 21 samples.

Results

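The regions described here are stretches of mouse chromatin that GATA4 occupied in Tie2-Cre-labelled cells of the embryonic ventricle, without a GATA4 peak in Tnnt2-Cre-labelled cells, the cardiomyocytes, and that were open in sorted endothelial cells. The peaks of 6 GATA4 lists were merged wherever they shared 1 bp, which gave 49798 regions. To be kept, a region needed peaks from 2 or all of the 3 Tie2-Cre lists and from none of the 3 Tnnt2-Cre lists, and had to overlap by 1 bp an endothelial ATAC region with peaks in both endothelial libraries. This left 5395 regions, 10.8% of all GATA4 regions and 88.5% of the 6095 that met the GATA4 conditions alone. The presence of GATA4 and endothelial ATAC peaks therefore chose the regions, and those values are given below as a description, with no test. RNA and the ATAC lists of Gata4 het and Gata4 ko endothelium were not used in the choice.

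All samples came from mouse embryonic hearts at E12.5. GATA4 was mapped by bioChIP, in which streptavidin beads pull down a GATA4 that has been biotinylated in the living cell. Biotinylation was switched on by Tie2-Cre in 3 libraries and by Tnnt2-Cre in 3 libraries, each from 15 to 20 crosslinked heart ventricles, so each library pools embryos. Endothelial ATAC and RNA libraries came from Rosa26fsTrap;Tie2Cre ventricles, with 40000 sorted GFP+ cells for each of 2 ATAC libraries (numbered 2 and 3) and 60000 for each of 2 RNA libraries. Cardiomyocyte RNA comprised 3 libraries whose isolation the sources used here do not give, and cardiomyocyte ATAC was not analysed here. A further 6 ATAC libraries, numbered 2 to 4 in each genotype, came from 20000 GFP+ ventricular cells marked by Cdh5(Pac)-CreERT2 and a Rosa26mTmG reporter. Their pregnant dams received 1 mg tamoxifen at E9.5, in both genotypes, and the embryos were labelled Gata4 het (control) or Gata4 ko (mutant). The sources used here do not give the alleles behind those labels.

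GATA4 is a zinc-finger transcription factor that binds DNA at the letters GATA. In the embryonic heart it acts in cardiomyocytes, where it works with TBX5, NKX2-5 and MEF2C, and also in endocardium, where it is needed for the cushions that become valves. Endothelial cells are defined by receptors such as KDR and TEK, by adhesion molecules such as CDH5 and PECAM1, and by transcription factors of the ETS, SOX and KLF families. Tie2-Cre marks endothelium and endocardium, the cushion mesenchyme that arises from endocardium, and cells of the blood lineage, so it does not isolate a single cell type. Cdh5(Pac)-CreERT2 depends on another promoter and on tamoxifen, so the cells it marks need not be the same.

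The DNA of regions at gene starts is shown first, because it is where GATA4 occupancy, open chromatin and a known sequence meet. The stretches lie within the 250 bases before a RefSeq transcript start (GRCm38.p6, the same assembly as mm10) and within one of the regions, read 5′ to 3′ in the direction of the gene. They cover chr4:94739039-94739288 for Tek on the plus strand, chr11:70638872-70639121 for Gp1ba on the plus strand and chr5:90772185-90772434 for Pf4 on the plus strand. The Erg stretch is chr16:95459349-95459598 on the minus strand, at an internal start, 126906 bp from the outermost Erg start in the annotation. Ctla2a is read from chr13:60936642-60936875 on the minus strand, Olr1 from chr6:129507166-129507415 on the minus strand and Pafah2 from chr4:134402716-134402911 on the plus strand, also at an internal start, 6396 bp from the outermost one. Izumo1 is read from chr7:45621561-45621810 on the plus strand and 4930432J09Rik from chr14:104027143-104027392 on the minus strand. Tek, Gp1ba, Pf4 and 4930432J09Rik follow the rule for named regions, and the other 5 were chosen after their values were seen. None of these stretches holds an annotated exon base. Capitals mark GATAA or its reverse complement TTATC, the core that GATA factors recognise.

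Tek: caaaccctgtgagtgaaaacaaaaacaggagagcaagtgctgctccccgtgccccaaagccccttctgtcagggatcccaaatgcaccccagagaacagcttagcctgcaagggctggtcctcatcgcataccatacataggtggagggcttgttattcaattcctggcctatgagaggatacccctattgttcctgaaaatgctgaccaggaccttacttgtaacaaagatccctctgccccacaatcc
Gp1ba: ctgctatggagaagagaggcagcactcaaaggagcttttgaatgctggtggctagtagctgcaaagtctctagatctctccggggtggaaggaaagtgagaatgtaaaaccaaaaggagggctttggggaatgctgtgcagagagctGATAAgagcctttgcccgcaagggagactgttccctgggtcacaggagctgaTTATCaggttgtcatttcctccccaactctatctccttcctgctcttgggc
Pf4: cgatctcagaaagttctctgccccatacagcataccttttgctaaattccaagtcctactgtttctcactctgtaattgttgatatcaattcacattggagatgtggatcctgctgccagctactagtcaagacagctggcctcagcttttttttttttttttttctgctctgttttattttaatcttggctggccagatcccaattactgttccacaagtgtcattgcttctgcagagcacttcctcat
Erg: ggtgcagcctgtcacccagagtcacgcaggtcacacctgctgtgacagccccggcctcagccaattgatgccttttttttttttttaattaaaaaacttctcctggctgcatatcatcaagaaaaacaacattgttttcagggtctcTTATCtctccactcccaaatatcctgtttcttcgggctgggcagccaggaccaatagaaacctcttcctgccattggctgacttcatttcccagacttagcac
Ctla2a: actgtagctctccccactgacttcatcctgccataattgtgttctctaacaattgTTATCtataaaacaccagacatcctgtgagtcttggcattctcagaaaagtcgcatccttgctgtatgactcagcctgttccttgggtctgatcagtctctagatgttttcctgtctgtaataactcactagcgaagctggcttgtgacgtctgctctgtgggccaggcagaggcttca
Olr1: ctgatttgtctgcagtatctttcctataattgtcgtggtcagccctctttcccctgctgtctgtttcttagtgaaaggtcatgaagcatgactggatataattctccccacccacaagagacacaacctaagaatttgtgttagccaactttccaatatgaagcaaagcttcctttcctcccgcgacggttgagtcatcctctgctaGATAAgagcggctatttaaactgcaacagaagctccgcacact
Pafah2: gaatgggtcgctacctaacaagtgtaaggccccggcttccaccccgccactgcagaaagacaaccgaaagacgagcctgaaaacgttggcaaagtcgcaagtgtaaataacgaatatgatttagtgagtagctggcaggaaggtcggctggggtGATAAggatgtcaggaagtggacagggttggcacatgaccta
Izumo1: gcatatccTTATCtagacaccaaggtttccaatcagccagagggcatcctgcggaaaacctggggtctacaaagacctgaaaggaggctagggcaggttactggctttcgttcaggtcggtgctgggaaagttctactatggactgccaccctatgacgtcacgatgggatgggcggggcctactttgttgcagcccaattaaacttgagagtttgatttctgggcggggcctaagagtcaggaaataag
4930432J09Rik: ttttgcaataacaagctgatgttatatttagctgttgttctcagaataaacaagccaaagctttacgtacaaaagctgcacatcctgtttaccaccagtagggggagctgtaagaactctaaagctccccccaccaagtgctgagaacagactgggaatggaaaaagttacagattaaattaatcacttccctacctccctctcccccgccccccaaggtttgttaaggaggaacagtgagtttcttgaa

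The Gp1ba stretch held 2 cores, the nearer one 15 bp from the GATA4 summit. In Ctla2a the core lay 6 bp from the summit, in Pafah2 13 bp and in Olr1 22 bp. Izumo1 and Erg each held 1 core, at 104 bp and 121 bp from the summit. The stretches of Tek, Pf4 and 4930432J09Rik held no GATAA or TTATC. At Tek and Pf4 the summit lay 96 bp and 66 bp downstream of the start, outside the bases shown.

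More widely, 223 of the 5395 regions overlapped a RefSeq promoter window of 300 bases (250 before to 50 after the start). In 119 regions the GATA4 summit itself fell in such a window, 133 windows in all. GATAA on either strand stood in 68 of the 133 windows, or 51.1%, against 25.4% of all 32817 windows and 12.3% of the 11355 windows in endothelium-open regions without a GATA4 region. The windows of GATA4 regions shared by both lineages and open in endothelium held it in 42.7% of 722, and those of Tnnt2-Cre-selective regions open in endothelium in 33.9% of 189. AGATAA, a longer form whose windows are all among those with GATAA, stood in 30.8%, 21.7% and 19.0% of these 3 sets and in 11.2% of all windows. Where a window held the core, the nearest one lay a median of 32 bp from the summit, and within 50 bp in 41 of 60 regions.

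Letters recognised by other factors of endothelial and cardiac cells were counted on both strands of the same windows. The ETS core GGAAG stood in 82.0% of the 133 windows, in 77.8% of shared windows and in 71.4% of all windows. In Tnnt2-Cre-selective windows GGAAG stood in 67.7%. The longer ETS form CCGGAAG stood in 15.0% of the 133 windows, in 27.8% of shared windows, in 12.2% of Tnnt2-Cre-selective windows and in 8.86% of all windows. TGANTCA, the site of AP-1, stood in 12.03%, against 4.85% of shared and 7.81% of all windows. ACAATG, a SOX site, stood in 15.0%, against 7.20% of shared and 12.6% of all windows, and TGTTTAC, a forkhead site, in 7.52%, against 2.49% and 3.65%. TGGAAA of NFAT factors stood in 21.1% against 21.4% of all windows, and CANNTG of basic helix-loop-helix factors in 69.2% against 72.3%. Among cardiac factors, AAGTGG of NKX2 factors stood in 21.8% of the 133 windows, against 13.2% of Tnnt2-Cre-selective, 19.4% of shared and 16.9% of all windows. GGAATG of TEAD factors stood in 17.3%, against 20.6% of Tnnt2-Cre-selective and 14.7% of all windows. AGGTGTG of T-box factors stood in 3.76%, against 2.12% and 5.84%, and the MEF2 letters in 1.504%, against 3.70% and 2.72%. The median GC content was 53.3% in the 133 windows, 59.3% in shared windows and 52.7% in all windows. It was 60% in Tnnt2-Cre-selective windows and 60.7% in endothelium-open windows without a GATA4 region. The part of base composition in these shares was not tested.

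The 3 Tie2-Cre lists differed greatly in length, with 17682, 2734 and 25936 peaks in replicates 1, 2 and 3. Replicate 1 held a peak in 5343 of the 5395 regions, replicate 2 in 821 and replicate 3 in 5381. Most regions, 4574, therefore rest on replicates 1 and 3, while 755 had a peak in all 3 lists, 52 in replicates 2 and 3, and 14 in replicates 1 and 2. Without Tie2-Cre replicate 1 the rule kept 809 regions and without replicate 3 it kept 765, but without replicate 2 it kept 5331. With all lists cut to equal length it kept 1336. The Tnnt2-Cre lists moved the count less: without Tnnt2-Cre replicate 3, the longest of the 6 at 30447 peaks, 6545 regions passed.

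Fold is the authors' enrichment over background at a peak, and it was compared between regions within 1 list only. In the regions it had a median of 5.39 in replicate 1 (3.02 to 15.1), 5.77 in replicate 2 (3.93 to 11.4) and 5.64 in replicate 3 (2.87 to 15.3). The mean percentile of a region's folds within its Tie2-Cre lists was 67.5 at the median for the 755 regions in 3 lists and 51.4 for the 4640 regions in 2 lists. Just outside the rule stood 7271 endothelium-open regions with a peak in 1 Tie2-Cre list, at a median percentile of 29.7. A further 1518 were excluded by a peak in 1 Tnnt2-Cre list, 286 by a peak in 1 endothelial ATAC list only and 414 by none. Endothelial ATAC peaks over the regions were of middle to high rank, at median percentiles of 76.0 and 79.1 in lists of 114599 and 130708 peaks.

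The label of endothelium was checked against marker genes in RNA, given as CPM, read counts scaled by TMM to a common library size. Cdh5, the vascular endothelial cadherin, stood at 1032 and 1003 CPM in the endothelial libraries and at 64.7, 73.9 and 83.1 in the cardiomyocyte libraries. The cardiomyocyte genes Tnnt2 (79.6 and 82.9 CPM in endothelium, 4640 to 5998 in cardiomyocytes) and Myh6 (45.8 and 43.1, 6688 to 7746) were far lower in the sorted cells, though not at 0. Ptprc, the leukocyte common antigen, stood at 1.45 and 1.27 CPM in endothelium and at no more than 0.146 in cardiomyocytes. The embryonic globin Hbb-y was at 12.3 and 11.8 CPM in endothelium and at 1213 to 3025 in cardiomyocytes. RNA totals were 27660790 and 21682362 assigned reads in endothelium and 42948614 to 48393473 in cardiomyocytes. Gata4 itself stood at 252.8 and 243.8 CPM in endothelium and 63.5 to 87.3 in cardiomyocytes, 1.72 ± 0.11 (SE) higher on the log2 scale (adjusted p = 1.3e-07, edgeR's quasi-likelihood test).

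The region with the highest mean percentile lay upstream of Prox1, a homeobox gene of lymphatic endothelial fate and of cardiomyocytes, at chr1:190181747-190182185. It had folds of 11.7 and 12.2 in Tie2-Cre replicates 1 and 3, no peak in replicate 2, and folds of 16.1 and 15.5 in endothelial ATAC. Prox1 RNA went the other way from most neighbouring genes, at 14.6 and 18.3 CPM in endothelium and 46.7 to 72.7 in cardiomyocytes, a log2 difference of -1.84 ± 0.18 (adjusted p = 3.6e-06, edgeR's quasi-likelihood test). This region was singled out after its values were seen, since the rule for the strongest named regions asks for a peak in all 3 lists. The percentile is averaged only over lists that hold a peak, so a peak in the short replicate 2 list can lower a region's rank. A region at Adgrg6 ranked below the Prox1 one, although its folds of 15.1 and 15.3 in replicates 1 and 3 were higher.

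Among the regions in all 3 Tie2-Cre lists, the strongest stood 5788 bp from the start of St6gal1, a sialyltransferase, at chr16:23217981-23218952. Its folds were 11.98, 11.4 and 12.9, and St6gal1 RNA was 115 and 115 CPM in endothelium against 15.6 to 20.0 in cardiomyocytes. An intron of Adgrg6, an adhesion G-protein-coupled receptor, held the next at chr10:14483127-14483648, with folds of 15.1, 9.67 and 15.3. Adgrg6 RNA stood at 569 and 573 CPM in endothelium against 72.8 to 97.5, a log2 difference of 2.69 ± 0.11 (adjusted p = 3.6e-09, edgeR). A region at chr8:102945423-102946053 followed Dleu7 in rank, with folds of 13.4, 9.46 and 15.0, and lay 160312 bp from its nearest start, that of the cadherin Cdh11. Beyond 50 kb a region was not assigned to a gene in the counts below, and neither Adgrg6 (61388 bp away) nor Cdh11 entered them through these regions. Each of the St6gal1, Adgrg6 and Cdh11 regions held a peak in all 6 het and ko ATAC lists.

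The regions were short and mostly far from gene starts. Their median width was 365 bp (quartiles 290 and 464 bp). A start lay close to few of them: 310, or 5.75%, lay within 1 kb of the outermost start of an annotated gene, against 16.8% of the 3805 Tnnt2-Cre-selective regions open in endothelium and 28.3% of the 6151 shared regions open in endothelium. A region was placed by its midpoint in an exon, else an intron, else between genes. By this rule 192 lay in an exon, 2332 in an intron and 2871 between genes. A region over a gene start can count as between genes where its midpoint lies upstream, as at Tek. The median distance to the nearest start was 41125 bp, and 3019 regions lay within 50 kb.

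Distance from a start went with other measures. Regions within 1 kb of a start had a median endothelial ATAC percentile of 92.1, against 77.8 at 1 to 50 kb and 74.7 beyond. Their share with a peak in all 3 Tie2-Cre lists ran the other way, at 9.03%, 12.8% and 16.0%. The regions at starts thus had the highest ATAC percentile of the 3 bands and the smallest share with a peak in every Tie2-Cre list.

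GATA4 summits lay close to the centre of open chromatin. Summits of Tie2-Cre replicates 1 and 3 were a median of 48 bp apart in the 5329 regions that had both, and within 50 bp of each other in 52.6%. From the GATA4 summit to the endothelial ATAC summit the median was 69 bp in replicate 2 and 67 bp in replicate 3. Tnnt2-Cre-selective regions open in endothelium gave 94 and 92 bp, and shared regions 82 and 82 bp. The shares within 50 bp of the ATAC summit in replicate 2 were 39.8% of the regions, 31.1% of the Tnnt2-Cre-selective and 34.1% of the shared regions.

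**Figure D1:**
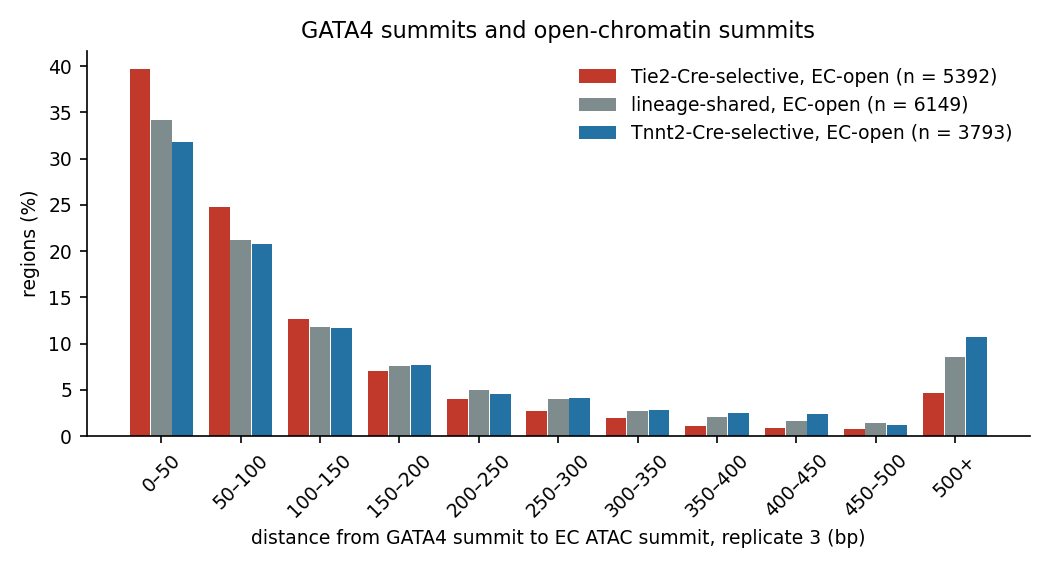
Distance in bp from the GATA4 summit to the summit of endothelial ATAC replicate 3, in steps of 50 bp (x axis), against the percent of regions (y axis), for the Tie2-Cre-selective, Tnnt2-Cre-selective and shared regions open in endothelium. The first 50 bp hold the tallest bar of the Tie2-Cre-selective regions, 39.7%, and distances of 500 bp and more hold 4.60% of them, against 8.55% of the shared and 10.7% of the Tnnt2-Cre-selective regions.

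The regions were spread over the genome. Their share of the GATA4 regions of a chromosome ran from 9.71% on chromosome 11 to 12.7% on chromosome 8 among the autosomes, and it was 7.47% on the X chromosome. The median distance to another region of the same class was 78402 bp, with 577 regions (10.7%) within 10 kb of one. A similar number, 557, had a Tnnt2-Cre-selective region within 10 kb, and 432 had a shared region open in endothelium there. Within 5 kb, 290 of the regions had a Tnnt2-Cre-selective neighbour.

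Genes near the regions were more often higher in endothelial than in cardiomyocyte RNA. A gene was counted when it was the nearest start of at least 1 region within 50 kb, which gave 2549 genes, 10.6% of the 24101 genes with a position. Of these, 1924 had enough reads to be tested. In endothelium 1033 of them, 53.7%, were higher, against 37.5% of all 14851 genes tested, and 547, 28.4%, were lower, against 40.2% of all (edgeR's quasi-likelihood test, adjusted p under 0.05). At a fold of at least 2, 710 genes (36.9%) were higher and 272 (14.1%) lower, against 22.2% and 22.6% of all genes. Their median log2 difference was 0.50, and that of all genes tested was -0.06. These are differences in the share of reads, and in bulk samples fewer cells of a type and less RNA per cell cannot be told apart. Endothelial cells were sorted and the isolation of cardiomyocytes is not given, so cell type and preparation cannot be told apart either.

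Other GATA4 classes gave other shares. Genes nearest to Tie2-Cre-selective regions that were not open in endothelium, 169 tested, were higher in 39.1% and lower in 36.7%. Those of Tnnt2-Cre-selective regions open in endothelium were higher in 35.0% and lower in 45.3% of 1868. Genes of shared regions open in endothelium were higher in 40.2% and lower in 39.1% of 3160. A gene can be nearest to regions of several classes, so these sets overlap and the differences between them were not tested.

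**Figure D2:**
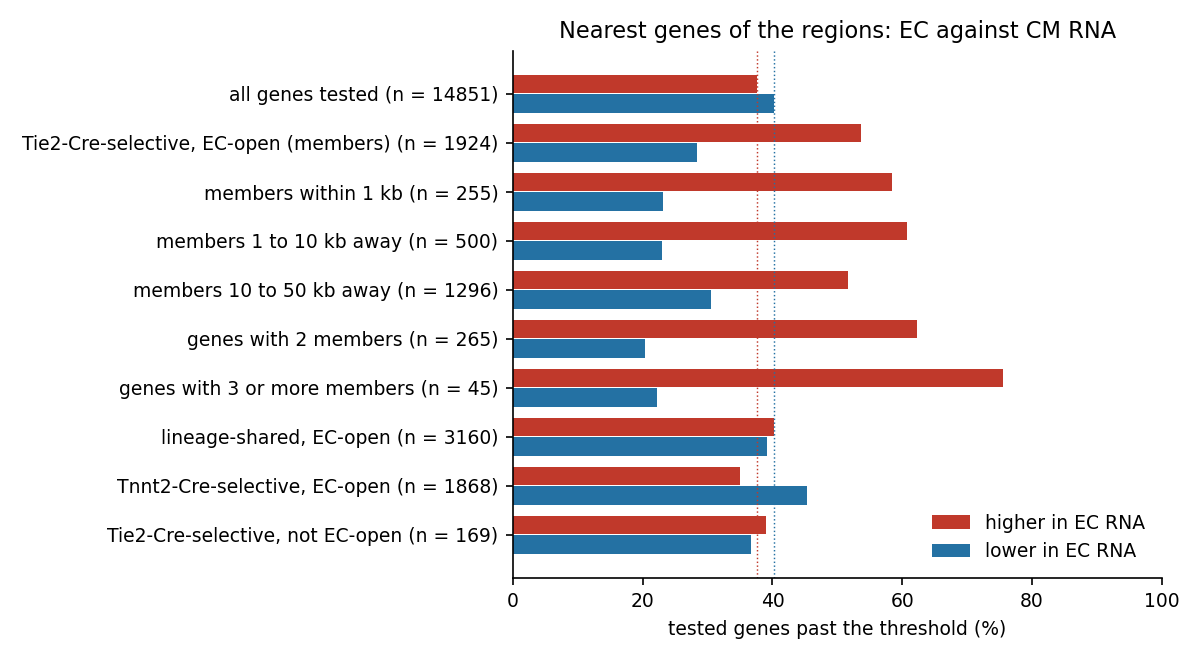
Percent of the tested genes nearest to a region that were higher (adjusted p under 0.05) or lower in endothelial than in cardiomyocyte RNA (x axis), for each class of GATA4 region, for distance and number bands of the Tie2-Cre-selective regions (called members in the plot) and for all genes tested. EC is endothelium, CM cardiomyocytes, n the genes tested, and the dotted lines mark all genes. The Tie2-Cre-selective regions open in endothelium stand at 53.7% higher and 28.4% lower, and all genes at 37.5% and 40.2%.

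The share that was higher grew with the number of regions near a gene. Genes with 1 region were higher in 51.7% of 1614 and lower in 29.9%. With 2 regions the shares were 62.3% and 20.4% of 265, and with 3 or more 34 of 45 genes (75.6%) were higher and 22.2% lower. By distance, 58.4% of genes with a region within 1 kb, 60.8% of those with one at 1 to 10 kb and 51.6% of those with one at 10 to 50 kb were higher. A gene with regions in several distance bands was counted in each. Genes of regions found in all 3 Tie2-Cre lists were higher in 55.6% and lower in 32.5% of 277.

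**Figure D3:**
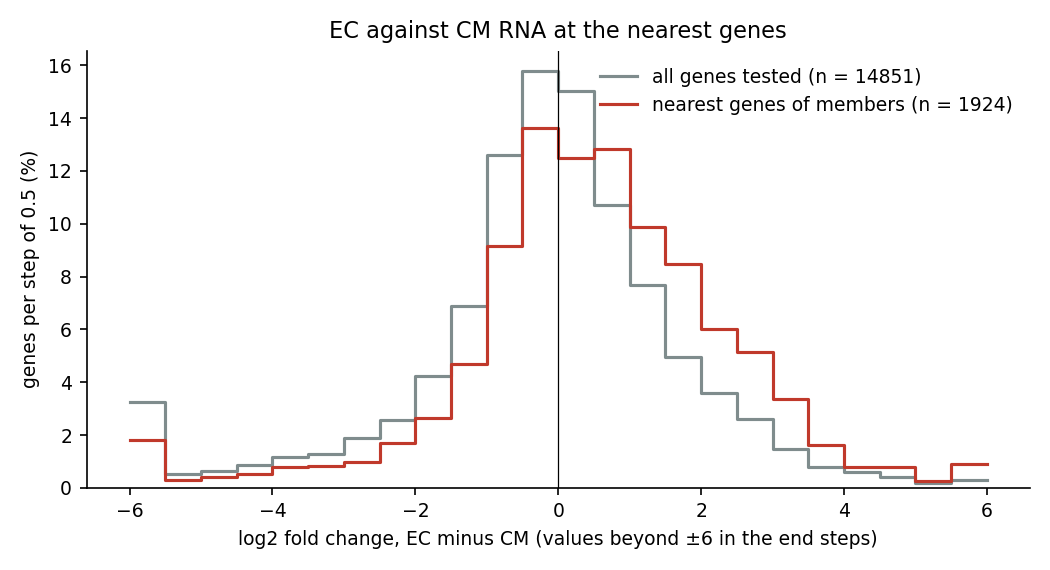
Log2 difference of endothelial minus cardiomyocyte RNA (x axis) against the percent of genes (y axis, in steps of 0.5), for the 1924 genes nearest to the regions and for all 14851 genes tested. The genes nearest to the regions have a median of 0.50 and all genes one of -0.06.

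Among genes of endothelial identity, 17 of 24 had at least 1 region nearest to them, 28 regions in all. All 17 were higher in endothelium, as were the 7 genes of the list without a region, so the call does not separate them. Tnnt2-Cre-selective regions open in endothelium were nearest to 3 genes of the same list. At Tek, the angiopoietin receptor whose promoter gives Tie2-Cre its name, a region at chr4:94738801-94739619 spanned the start. It had folds of 8.41, 7.70 and 7.26 in the 3 Tie2-Cre libraries and of 24.5 and 20.7 in endothelial ATAC, where it ranked 29 and 257 by fold. The Tie2-Cre and endothelial ATAC libraries carry a Tie2-Cre transgene. What part its copies of the Tek promoter had in these peaks was not tested. Each of the 6 het and ko lists held a peak there, with folds of 5.17, 6.62 and 6.94 in the het lists and 8.08, 6.48 and 4.98 in the ko lists. Tek RNA was 890 and 927 CPM in endothelium and 171 to 218 in cardiomyocytes. A second Tek region, 13145 bp upstream at chr4:94725634-94726144, had folds of 4.62 and 5.49 in Tie2-Cre replicates 1 and 3.

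Other genes of endothelium carried regions both at the start and away from it. Pecam1, an adhesion molecule of endothelial junctions, had one over its start at chr11:106715153-106715566 with folds of 5.28 and 4.05 in replicates 1 and 3, and one 13118 bp away. Its RNA stood at 639 and 644 CPM in endothelium against 90.5 to 109 in cardiomyocytes. Vwf, which encodes the clotting protein von Willebrand factor, had 4 regions between 17683 bp upstream and 43755 bp downstream, 1 of them over the start at chr6:125552751-125553046. The start region had folds of 5.81 and 6.87 in replicates 1 and 3 and a peak in all 6 het and ko lists, while the intron region at chr6:125583599-125583939 had none of the 6. Vwf RNA was 207 and 194 CPM in endothelium and 18.9 to 21.8 in cardiomyocytes, a log2 difference of 3.28 ± 0.08 (adjusted p = 1.3e-10, edgeR).

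Cdh5 had 1 region, 1996 bp from its start at chr8:104099264-104099629, with folds of 4.36 and 4.75, and of 10.3 and 9.86 in endothelial ATAC. Across the 6 het and ko lists its folds were low, at 2.38 to 2.90. What part the Cdh5(Pac)-CreERT2 transgene of those cells had in these folds was not tested. Eng, a co-receptor for BMP9 and TGF-beta, had 1 region at chr2:32642943-32643224 with folds of 3.26 and 4.43. It had peaks in 2 of 3 het and 2 of 3 ko lists. Kdr and Flt1, receptors for VEGF, had regions in introns: 1 at Kdr (folds of 4.77 and 4.46) and 2 at Flt1, the stronger at chr5:147681140-147681609 (6.15 and 6.83). Kdr RNA was 882 and 882 CPM against 133 to 149, and Flt1 RNA 280 and 301 CPM against 43.3 to 46.5, in endothelium and cardiomyocytes. Icam2 (folds of 7.10, 7.55 and 7.89), Emcn and Plvap each had a region over the start. Of the VEGF and angiopoietin list, 7 of 16 genes had a region and all 7 were higher, as were 12 of the whole list, Pgf and Nrp2 with log2 differences of 0.57 and 1.08.

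Transcription factors that specify endothelium were represented by 9 of 24 listed genes, all 9 higher in endothelium, with 14 regions. All 22 tested genes of that list were higher, so here too the call does not separate genes with a region from the others. Sox18, a SOX factor of vascular and lymphatic endothelium, had a region 8056 bp from its start at chr2:181663115-181663584 with folds of 7.78 and 8.06 in replicates 1 and 3. Its RNA was low but distinct, at 19.3 and 16.8 CPM against 1.11 to 1.86. Epas1, the hypoxia-inducible factor HIF-2α, had 1 region 41485 bp upstream with folds of 6.90 and 6.62, and RNA of 259 and 282 CPM against 13.2 to 15.8. Klf2, which responds to blood flow, had 1 region inside the neighbouring Eps15l1 gene, with het peaks in replicates 2 and 3 and ko peaks in replicates 3 and 4.

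ETS factors carried several regions each. Fli1 had 3, at 74 bp, 14797 bp and 34800 bp from its start, and Ets1 had 2 that lay 23136 bp and 21728 bp upstream. The farther Ets1 region, chr9:32672464-32672906, had folds of 6.72, 4.88 and 5.73 in the 3 Tie2-Cre libraries and of 17.2 and 18.4 in endothelial ATAC. Fli1 RNA was 124 and 133 CPM in endothelium against 19.4 to 22.3, and Ets1 RNA 539 and 504 against 87.2 to 97.5. Hhex, a homeobox gene of early endothelium, had an intron region 626 bp from its start at chr19:37435467-37435982 with folds of 7.97, 5.41 and 6.90. Erg is not among the 9, since its region lay beyond 50 kb of the outermost start. That region, chr16:95459042-95459687, spanned the internal start shown above, had folds of 6.64 and 5.24 in replicates 1 and 3, and held a peak in all 6 het and ko lists.

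Of 20 endocardial genes 9 had a region, and 8 of the 9 were higher in endothelium, beside 16 of the 19 tested genes of the list. Nfatc1, the calcium-regulated factor that marks endocardium, had an intron region 3423 bp from its start that was among the weakest, with folds of 3.62 and 3.72, and it had a peak in none of the 6 het and ko lists. Its RNA was 186 and 176 CPM against 11.01 to 12.1. Hapln1, a link protein of cushion matrix, stood at 1454 and 1491 CPM against 24.1 to 28.2, a log2 difference of 5.83 ± 0.09 (adjusted p = 1.7e-11, edgeR), with 1 region 43724 bp upstream. Nrg1, the neuregulin that endocardium sends to cardiomyocytes, had 2 intron regions, the stronger at chr8:31884553-31884923 with folds of 7.34, 5.32 and 7.66 and a peak in all 6 het and ko lists. Wnt4 had 1 region 23283 bp upstream and RNA of 60.0 and 65.5 CPM against 1.504 to 1.83. Dkk3, a secreted Wnt pathway protein, was the 1 lower gene, at -1.30 on the log2 scale.

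Cushion mesenchyme, which arises from endocardium and keeps the Tie2-Cre mark, had regions at 4 of 17 listed genes. All 4 were higher, as were 16 of the 17 listed, although Msx2 lost its call without endothelial replicate 2 at 0.58. Sox9, a factor of valve mesenchyme, stood at 163 and 167 CPM against 1.997 to 2.31, and its region 2159 bp upstream had folds of 4.36 and 4.48 and a peak in 1 of the 6 het and ko lists. Postn, a matrix protein, had a region 49889 bp away with folds of 6.78, 5.59 and 8.85. Pdgfra, the PDGF receptor alpha, held the tenth-ranked region of all, at chr5:75137799-75138239 with folds of 10.5 and 10.3, and RNA of 217 and 212 CPM against 37.9 to 44.2. Pdgfra also belongs to the epicardial, fibroblast and mural list, of which 5 of 19 genes had a region, 4 of them higher and Dcn lower at -2.54. Of that whole list 6 genes were higher and 12 lower, with a median of -1.50. Markers of that list are present in the sorted cells: summed over 19 genes they came to 2521 and 2613 CPM in endothelium and 2215 to 2630 in cardiomyocytes, with Tcf21 at 25.5 and 23.9 CPM in endothelium against 8.66 to 10.4. Col1a1 was at 263 and 247 CPM in endothelium against 42.7 to 71.9, and Pdgfrb at 165 and 166 against 20.1 to 24.0. Wt1 stood at 7.62 and 9.28 CPM against 18.9 to 19.4, and Upk3b at 23.4 and 25.2 against 60.1 to 74.8. Their part in these differences was not tested.

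Coronary and vascular genes split in direction. Of 20 listed, 11 had a region, 8 of them higher and 3 lower, while the whole list had 15 higher and 5 lower. Gja4, a connexin of arterial endothelium, was higher at 4.13 on the log2 scale, while Gja5, a connexin of arteries and trabecular muscle, was lower at -3.82, with 7.69 and 10.5 CPM in endothelium against 122 to 134 in cardiomyocytes. The Gja5 region, chr3:97025379-97025829, had folds of 6.81 and 7.15 and a peak in all 6 het and ko lists. Cd36, a fatty acid transporter, was lower at -4.68, and its region 15825 bp upstream had folds of 9.01, 6.47 and 9.40. Fabp5 was lower at -0.56.

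**Figure D4:**
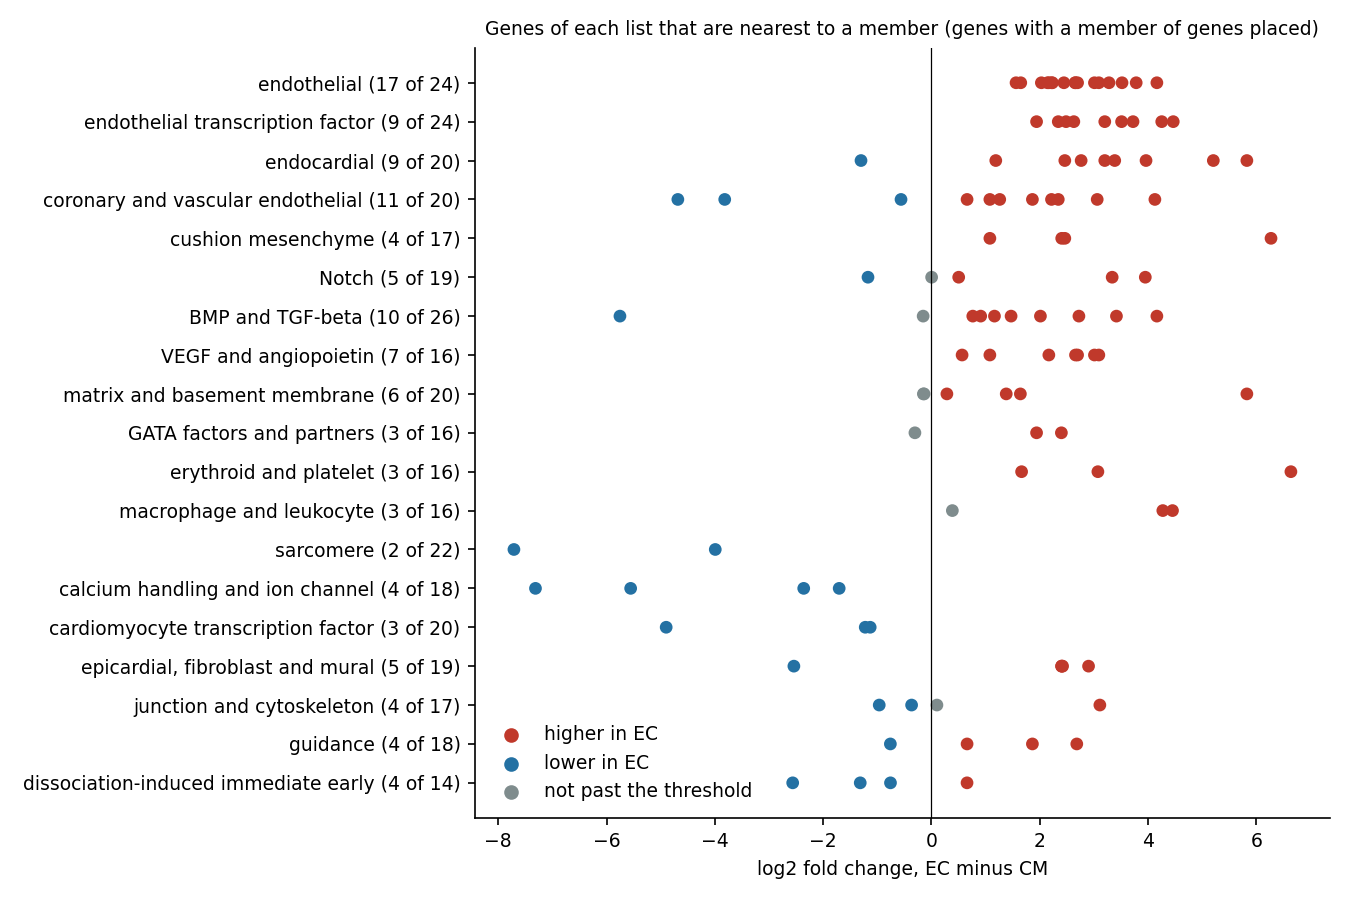
Log2 difference of endothelial minus cardiomyocyte RNA (x axis) for the genes of each list (y axis) that are nearest to a region within 50 kb, 1 point per gene. All 17 genes of the endothelial list lie above 0, and the 4 calcium handling and 2 sarcomere genes lie below 0.

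Ligands and receptors of signalling pathways were represented in part. In the BMP and TGF-beta list 10 of 26 genes had a region, 8 higher, 1 lower and 1 not called, and in the whole list 18 were higher and 3 lower. The type I receptors Acvrl1 (log2 difference of 2.01) and Acvr1 (2.73) were higher, Bmpr2, the type II receptor, was higher at 0.77, and Bmpr1a gave -0.15 without a call. Bmp10, a ligand made by trabecular cardiomyocytes, was the lower gene, at 1.21 and 1.36 CPM in endothelium against 58.9 to 74.0. Its region, chr6:87455595-87455887, had folds of 5.31 and 7.73 and a peak in all 6 het and ko lists. In the Notch list, where 15 of 19 genes were higher and 3 lower, 5 had a region. The receptors Notch1 (3.34) and Notch2 (0.50) and the target Heyl (3.95) were higher, Lfng, which modifies the receptor, was lower at -1.17, and the ligand Jag1 was not called at 0.0049. The Lfng call is lost without endothelial RNA replicate 2, where its difference was -0.63, and without cardiomyocyte replicate 1 (-1.10) or 2 (-1.16). The Notch1 region, chr2:26496566-26496854, was near the lower end of the range with folds of 3.804 and 3.45 and had no peak in any het or ko list.

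Matrix genes with a region were 6 of 20, with 4 higher and 2 not called, the latter Lama4 with 3 intron regions and Adamts9 with 2. The Lamc1 call at 0.29 is lost without either endothelial replicate (0.27 each). Guidance genes were 4 of 18, with Efnb2 (1.87), Sema6a (2.69) and Unc5b (0.66) higher and Plxna2 lower at -0.76. Among junction and cytoskeleton genes with a region, Rhoj was higher at 3.11, and Vcl and Amotl2 were lower at -0.96 and -0.37. Of 16 GATA factors and partners only Zfpm1, Lmo2 and Runx1 had a region, and no GATA gene did. Zfpm1, which encodes the GATA cofactor FOG1, had 2 intron regions with folds of 4.10 and 4.45 and of 3.77 and 3.27, and RNA of 130 and 114 CPM against 22.1 to 23.7. Runx1 was not called at -0.30, with 2.02 and 1.95 CPM against 2.21 to 2.62.

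Blood-lineage genes also had regions. In the erythroid and platelet list these were 3 of 16, all of them platelet genes and all higher. Of the 14 tested genes of that list 9 were higher and 4 lower. Gp1ba, which encodes the platelet receptor for von Willebrand factor, had a region over its start at chr11:70638752-70639328 with folds of 8.41, 5.83 and 10.7, a peak in all 6 het and ko lists, and RNA of 21.4 and 23.6 CPM against 0.0898 to 0.312. Pf4, a platelet chemokine, had folds of 5.88, 6.27 and 8.86 in a region that touched its first exon, and RNA of 6.24 and 6.20 CPM against 1.35 to 2.33. Summed over the 16 genes the list came to 142 and 145 CPM in endothelium and 1273 to 3138 in cardiomyocytes, where Hbb-y made up most of the sum in cardiomyocytes but not in endothelium, and Hba-a1 was at 0 in every library. In the macrophage and leukocyte list Mrc1, Fcgr3 and Vav1 had a region, Fcgr3 and Vav1 higher. Of the 13 tested genes of that list 10 were higher in endothelium and 1 lower. Summed over its 16 genes the list nevertheless came to 27.9 and 29.6 CPM in endothelium and 51.3 to 72.4 in cardiomyocytes. Csf1r stood at 4.998 and 4.62 CPM in endothelium against 1.53 to 2.04 in cardiomyocytes. The part of blood-lineage cells in the GATA4 and ATAC peaks was not tested.

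Some regions stood near cardiomyocyte genes. In the sarcomere list 2 of 22 genes had a region (9.09%), in the calcium handling list 4 of 18 (22.2%) and among cardiomyocyte transcription factors 3 of 20 (15.0%), beside 10.6% of all genes with a position. All 9 were lower in endothelium, as were all 22 tested sarcomere genes, all 17 tested calcium handling genes and 13 of the 20 transcription factors. Of the same calcium handling genes, 11 were nearest to a Tnnt2-Cre-selective region open in endothelium. Myh7, the slow myosin heavy chain, was at 157 and 169 CPM in endothelium against 32023 to 36342, a log2 difference of -7.71 ± 0.13 (adjusted p = 1.7e-11, edgeR). Its region 7779 bp upstream, chr14:55002328-55002969, had folds of 6.49, 6.47 and 6.32 in the 3 Tie2-Cre libraries, 9.58 and 9.31 in endothelial ATAC, and a peak in all 6 het and ko lists. Casq2, calsequestrin of the sarcoplasmic reticulum, stood at 1.13 and 2.22 CPM against 222 to 321, with a region of folds 4.42 and 4.99 at chr3:102083774-102084242. Tbx5, a T-box factor that partners GATA4 in cardiomyocytes, had an intron region at chr5:119875470-119876082 with folds of 8.50 and 9.47 and RNA of 16.5 and 13.9 CPM against 28.3 to 37.8.

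Hopx, an atypical homeobox gene of cardiomyocytes, had 3 regions, which differed in the het and ko lists. The one at chr5:77147972-77148566, 32849 bp upstream, had folds of 7.87 and 8.64 in Tie2-Cre replicates 1 and 3, 16.8 and 17.3 in endothelial ATAC and a peak in all 6 lists. The one at chr5:77075001-77075501, 39622 bp downstream of the start, had folds of 6.07 and 5.61 and a peak in ko replicate 3 alone. Hopx RNA was 3.69 and 3.803 CPM in endothelium against 106 to 116 in cardiomyocytes.

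Neither of the genes with the most regions, Apod and Eml4, was on the endothelial list, though Vwf, close behind, was. Apod, an apolipoprotein gene that had too few reads to be tested, and Eml4, a microtubule-binding protein, had 5 each. Vwf had 4, as did 4933417E11Rik, 6430710C18Rik, Gm19276 and Gm5086. Eml4 was higher by 1.06 on the log2 scale, at 297 and 320 CPM in endothelium against 131 to 164. Of the 5 Apod regions, those at chr16:31326118-31326445 and chr16:31326761-31327070 had the same endothelial ATAC folds, 9.89 and 11.2, those of 1 open region, so such neighbours are not independent. 6430710C18Rik was at 0 CPM in both endothelial libraries and at 1.10 to 1.48 in cardiomyocytes, which limits it as a case of a lower gene. Col3a1, a fibrillar collagen, had 3 regions, of which the one at chr1:45269377-45269607 had no peak in any het or ko list.

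Dissociation can raise immediate early genes in sorted cells. Of 14 such genes 4 had a region, with Ier3 higher at 0.66 and Fos (-1.31), Egr2 (-0.76) and Atf3 (-2.56) lower in endothelium. The whole list summed to 1935 and 1973 CPM in endothelium and 2278 to 2477 in cardiomyocytes. Where every library of the higher group reached 20 CPM, the greatest differences among genes nearest to the regions were Gp1ba, Sox9, Hapln1, Tcf7l1 (5.67), Gpr182 (5.61), Bgn (5.59), Creb3l1 (5.59), C1qtnf6 (5.56), St8sia2 (5.48) and Wnt4 (5.21) on the endothelial side. Bgn, a small matrix proteoglycan, stood at 673 and 739 CPM against 13.7 to 15.8. Under the same rule the differences on the cardiomyocyte side were larger. 2900060B14Rik was at 0 CPM in both endothelial libraries and at 126 to 153 in cardiomyocytes, and Mirlet7a-1 at 0 and 0.0453 CPM against 39.1 to 42.8. Then came Myh7 (-7.71), Trim55 (-7.52), Casq2 (-7.31), Scarna13 (-6.43), Abra (-6.10), Bmp10 (-5.75), Popdc2 (-5.70) and Jph2 (-5.55). What part sample preparation had in these differences was not tested.

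The Gata4 het and ko libraries ask whether chromatin at these regions stays open in endothelium that has lost more Gata4. No value here measures the loss of Gata4 in those cells, and their RNA was not analysed here. A peak of the het lists stood over 88.9%, 86.7% and 78.0% of the 5395 regions in replicates 2, 3 and 4, a mean of 84.6% ± 5.74 (SD, n = 3). In the ko lists the shares were 88.4%, 84.4% and 71.7%, a mean of 81.5% ± 8.71 (SD, n = 3). The genotypes overlapped, and the difference of 3.05 percentage points was within the spread between libraries (exact permutation test, two-sided, p = 0.6, smallest possible 0.1). List lengths moved with these shares: 90326, 82612 and 67201 peaks in het and 87496, 79263 and 55733 in ko. Without ko replicate 4, the shortest list, the difference turned to -1.84 points, and with lists of equal length it was 0.161 points. Over all 101038 endothelium-open regions, which are merged ATAC regions, het exceeded ko by 3.25 points. The het minus ko difference of the Tie2-Cre-selective regions thus departed from that of all open regions by -0.195 points (exact permutation test, p = 0.9).

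**Figure D5:**
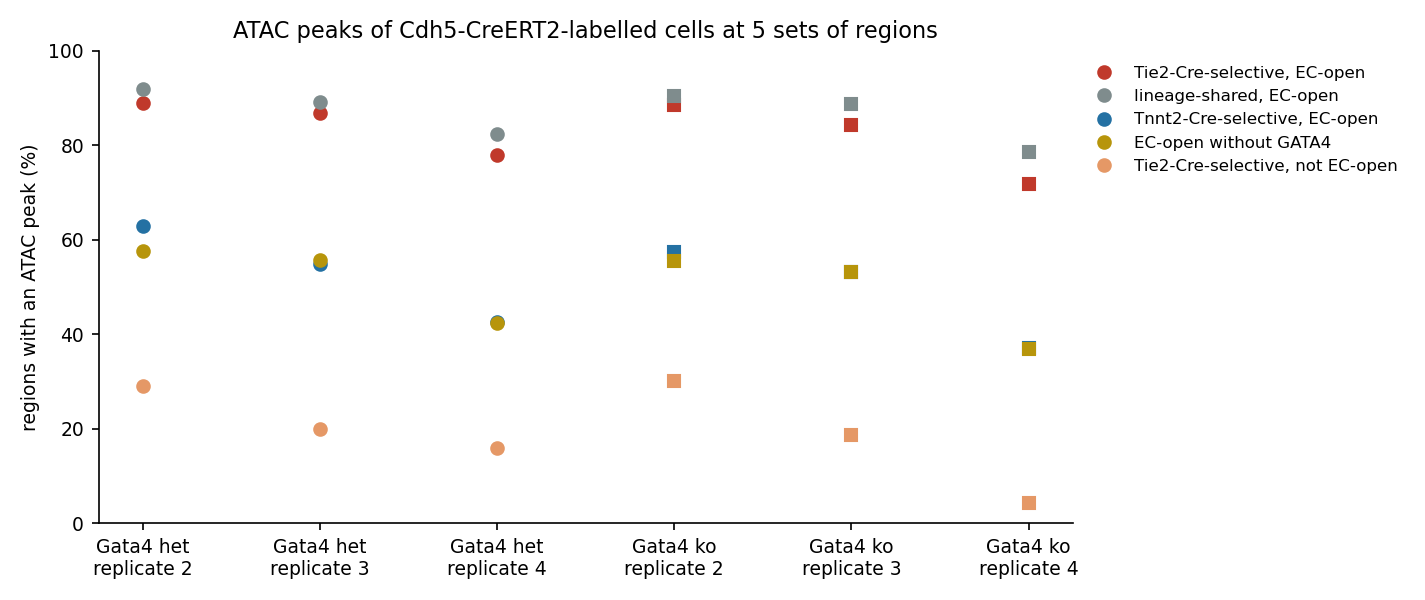
Percent of regions with an ATAC peak (y axis) in each of the 3 Gata4 het and 3 Gata4 ko libraries (x axis), for the Tie2-Cre-selective regions open in endothelium and 4 other sets of regions, 1 point per library. The Tie2-Cre-selective regions range from 71.7% to 88.9%, above the Tnnt2-Cre-selective regions in every library, and the libraries numbered 4 are the lowest in both genotypes.

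Other sets of regions took other levels in the same libraries. Tnnt2-Cre-selective regions open in endothelium held a peak in 62.8%, 54.9% and 42.5% in het and 57.5%, 53.2% and 37.0% in ko. Shared regions stood at 91.9%, 89.1% and 82.4% in het and 90.4%, 88.8% and 78.6% in ko. Tie2-Cre-selective regions without an endothelial ATAC region in both lists stood lower, at 21.6% ± 6.74 (SD, n = 3) in het and 17.7% ± 12.9 (SD, n = 3) in ko. Over the 6 het and ko libraries the Tie2-Cre-selective regions exceeded Tnnt2-Cre-selective regions open in endothelium by 31.7 points on average (26.1 to 35.5) and endothelium-open regions without GATA4 by 32.8 points (31.1 to 35.6). Against shared regions the difference was -3.83 points (-6.91 to -1.94). Each difference had the same sign in 6 of 6 libraries (exact sign-flip permutation test, p = 0.03125 and adjusted p = 0.03125 over 3 comparisons, the smallest the design allows). That p-value measures only the agreement of libraries, het and ko together, that score the same regions. GATA4 peaks in Tie2-Cre cells chose the classes, so the differences describe that choice and are no independent support. The Tie2-Cre-selective regions also had stronger endothelial ATAC peaks than most. With the other classes weighted to the same endothelial ATAC strength, the excess was 18.6 points over Tnnt2-Cre-selective regions and 9.15 over regions without GATA4, and the sign against shared regions turned to 3.67 points above (1.71 to 5.07). Regions without GATA4 were counted as merged ATAC regions, and the GATA4 classes as merged GATA4 regions. Shared regions were also wider, at a median of 522 bp against 365 bp for the Tie2-Cre-selective ones. What part unit and width had in these differences was not tested. The het and ko lists carry other peak names and lower minimum q scores than the endothelial ATAC lists, so those lists were not compared with each other in strength.

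A peak in 1 genotype alone was rare. Het-selective regions, those with a peak in 2 or 3 het lists but no ko list, numbered 77 of the 5395 (1.43%), against 2.06% of all endothelium-open regions. The reverse, ko-selective, held for 35 (0.649%), against 1.03%. With 3 of 3 against 0 of 3 the counts were 16 and 6. A peak in all 6 lists stood over 3378 regions (62.6%), and 185 (3.43%) had none. The counts depend on single libraries. Without ko replicate 2 the het-selective count was 250 and without ko replicate 3 it was 144, while without het replicate 2 it was 25 and without het replicate 3 it was 30. The ko-selective count was 119 without het replicate 2, 87 without het replicate 3 and 56 without het replicate 4, and 11 without ko replicate 2 or ko replicate 3.

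Such regions were weak in endothelial ATAC. With the regions cut into 3 equal classes by endothelial ATAC percentile, 22.8% of the weakest class had a peak in all 6 lists, 72.5% of the middle class and 92.6% of the strongest. The het-selective regions numbered 60, 14 and 3 in these classes and the ko-selective ones 31, 2 and 2. By GATA4 percentile the share in all 6 lists was 58.5%, 58.8% and 70.5% from the weakest class to the strongest. The best ranked het-selective region, chr4:102025806-102026216, lay 38966 bp from the start of Gm12789 with GATA4 folds of 9.10 and 8.48, and its het folds were 4.79 and 4.97 in replicates 2 and 4. A het-selective region in an intron of Rbak, chr5:143177849-143178214, had GATA4 folds of 6.43 and 7.85. The best ranked ko-selective region, in an intron of Plag1, a zinc-finger gene, at chr4:3924235-3924609, had GATA4 folds of 6.50 and 7.49 and ko folds of 3.97 and 5.22 in replicates 2 and 3. Plag1 RNA was lower in endothelium, at -2.12 on the log2 scale. Among the regions of listed genes, 1 at Fcgr3 was het-selective and 1 at Col3a1, chr1:45276095-45276576, was ko-selective. The regions at Nfatc1, Notch1, Smad6, Jph2 and Ier3 had a peak in none of the 6 lists, nor did 1 region each at Vwf, Col3a1, Bmper and Zfpm1.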

How the data were processed

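GATA4 and ATAC peaks were deposited as 1 list per library. The authors' fold over background, −log10 p and −log10 q stand beside each peak, and peak names carry MACS2, per the deposited files. Read counts per gene were deposited for RNA, made with featureCounts 1.6.3 per the file headers. Bowtie 1.1.1, Bowtie2 2.2.9, MACS2 2.2.4, STAR 2.7.3a and deepTools 3.3.1 stand in the submitters' processing notes without roles, with the build mm10. Read depth behind the peak lists is unknown, and a missing peak does not show that chromatin was closed or unbound.

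Peaks were merged in Python 3.11.15 (numpy 2.4.6, pandas 2.3.3, scipy 1.17.1, matplotlib 3.10.9) and called shared at an overlap of 1 bp. Regions were given to the nearest outermost gene start of the count table within 50 kb, after leaving out 144 genes on several chromosomes or strands and 176 with copies lying apart. edgeR 4.0.16 under R 4.3.3 fitted the counts by its quasi-likelihood test, after TMM scaling and filterByExpr, with a Benjamini-Hochberg threshold of 0.05, over 14851 of 24421 genes, endothelium minus cardiomyocytes, with no block. DESeq2 1.42.0 was the other tool. The code was tested on simulated data.

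The regions, the 19 gene lists and the tests were chosen with earlier results of these data known. Regions were ranked by the mean percentile of fold in the Tie2-Cre lists that held a peak. Named were the 8 best ranked in all 3 lists, up to 3 per gene list, the 6 best within 1 kb of a start, the 4 best het-selective and 4 best ko-selective ones and those of the 5 genes with most regions. Genes named were their nearest genes, the 10 greatest differences each way where all libraries of the higher group reached 20 CPM, and up to 4 per list by smallest adjusted p. Nothing in the labels says which libraries of a group came from separate animals, so p-values measure the spread between these libraries, which may in part be technical. The alternatives changed the scaling, the count filter, the threshold fold (2), the peak cut, list length, distance or ATAC strength, or left out a library. Leaving out GATA4 libraries for the RNA shares, and libraries numbered 4 for the ATAC shares, was added after seeing the data.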

Additional observations from a re-analysis of the deposited data

How the results depend on the processing

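The number of regions, 5395, became 1336 with GATA4 lists of equal length and 755 with 3 of 3 Tie2-Cre lists, and it ran from 765 to 6545 with each GATA4 library left out. The share of nearest genes that were higher in endothelium, 53.7%, was 31.0% and the lower share 11.3% in a test against a 2-fold difference, where all genes gave 17.3% and 18.0%. With each library left out the shares ran from 50.3% to 55.2% and from 26.1% to 32.6%. DESeq2 gave 46.7% and 25.4%, with 31.2% and 34.2% of all genes. The replicate block gave 51.4% higher and 27.4% lower. The share of regions with an ATAC peak, het minus ko, was 3.05 points, and ran from -1.84, without ko replicate 4, to 6.51 with each library left out. With the replicate block it stayed at 3.05 points (exact sign-flip permutation test over 3 numbers, p = 0.25, the smallest possible). Libraries of the same number deviated together only weakly (r across regions of 0.116, 0.050 and 0.190 for numbers 2, 3 and 4), and each correlated best with its own number. The het-selective count of 77 was 10 among regions in 3 of 3 Tie2-Cre lists, 16 with 3 of 3 against 0 of 3 libraries, and 25 to 250 with each library left out. The ko-selective count of 35 was 70 with lists of equal length, 0 among regions in 3 of 3 Tie2-Cre lists, 6 with 3 of 3 against 0 of 3, and 11 to 119 with each library left out. The differences between region classes ran from 31.0 to 32.8 points against Tnnt2-Cre-selective regions, from -4.21 to -3.22 against shared regions and from 32.3 to 33.2 against regions without GATA4 with each library left out, with an adjusted p of 0.0625, the smallest that 5 libraries allow. With the libraries numbered 4 left out they were 30.01, -2.93 and 31.6 points, with an exact p of 0.125, the smallest that 4 allow. Against shared regions, weighting to endothelial ATAC strength turned the sign to 3.67 points, and the cause was not tested. Of 98 named genes tested, 93 kept their call and direction in every RNA alternative, the exceptions being Adamts9, Lamc1, Lfng, Mrc1 and Msx2. The depth behind the peak lists is unknown, so what it limits there was not measured.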
